A study of Mus musculus with 36 samples.

Results

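The genes described here are 44 genes of DNA replication, read out of 52505 gene rows in a table of expression values from 3T3-L1 cells. 3T3-L1 is a line of mouse fibroblasts, and a mixture of hormones and drugs brings it to form fat cells. The genes were chosen by name for their roles, with earlier results of these data known. Each symbol was matched to its Ensembl identifier, and each of the 44 symbols matched 1 row. RNA was sequenced from 4 groups of 3 libraries. Libraries labelled KO (genotype zfp217-/-) and libraries labelled WT (wild type) were taken at day 2 of the cocktail and at day 0, before it. Zfp217 encodes a zinc finger transcription regulator. All 4 groups share the line and a serum-containing medium, and the cocktail held dexamethasone, isobutyl-methylxanthine (a phosphodiesterase inhibitor), insulin and indomethacin. Whether the KO cells are 1 clone, and whether the 3 libraries of a group are separate cultures, the labels leave unsaid. The p-values therefore cover the spread of these libraries alone, which may be technical. Values are FPKM (fragments scaled by gene length and by library size) as mean ± SD of n = 3 libraries, unless a log2 change is named. Log2 changes and counts of genes at least 2-fold apart are on the log2(FPKM + 1) scale, which understates the change of low genes, and so are the ranks of genes by size of change. Other folds are ratios of group mean FPKM.

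Replication starts in G1, when the origin recognition complex (Orc genes), Cdc6 and Cdt1 load the Mcm2 to Mcm7 helicase onto origins, a step called licensing that geminin (Gmnn) blocks outside G1. At the start of S phase Cdc45 and the GINS proteins join the helicase and Mcm10 helps to set it moving. Polymerase alpha with primase lays down primers, the Rfc clamp loader places the PCNA ring, polymerases delta and epsilon extend the strands, and Fen1 and Lig1 join the fragments of the lagging strand. The genes for these proteins are known to be switched on together at the border of G1 and S phase by E2F factors. Confluent 3T3-L1 cells are known to re-enter the cell cycle for a few divisions soon after the cocktail is given, before fat cell genes come on.

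Some facts of the libraries touch all results below. Zfp217 RNA was higher, not lower, under the KO label: it stood at 22.6 ± 0.858 in KO and 15.1 ± 0.369 in WT at day 2 (log2 change 0.55, SE 0.04, adjusted p = 2.41e-08), and at 26 ± 0.883 in KO and 22 ± 0.279 in WT at day 0 (log2 change 0.23, SE 0.04, adjusted p = 7.58e-05). The labels do not give the edited part of the gene, and a level over the whole gene does not show a small change in its sequence, so every direction below is one between libraries as labelled. In the mitochondrial ribosomal RNA mt-Rnr1, WT day 0 replicate 3 was unlike the other libraries of its group, at 264 FPKM against 7.01 and 5.87, while mt-Rnr1 was 379 to 396 in KO day 0. At day 2 mt-Rnr1 was 13.5 to 17.2 in KO and 15.6 to 19.9 in WT. All KO day 0 libraries thus stood apart from both day 2 groups in this RNA, and the part of this in the results was not tested. Without WT day 0 replicate 3 no log2 change of a replication gene at day 0 moved by more than 0.06. The proliferation markers Mki67, Ccnb1 and Cdk1 summed to 37.2 to 39 in KO and 129 in WT at day 2, and to 19.5 to 20.3 in KO and 237 to 241 in WT at day 0. The 8 preadipocyte markers summed to 4451 to 4649 in KO and 722 to 735 in WT at day 2, and to 19056 to 19652 in KO and 5656 to 5857 in WT at day 0, with none at 0. The 7 adipocyte markers summed to 330 to 344 in KO and 8156 to 8344 in WT at day 2, and to 190 to 201 in KO and 56.1 to 60.4 in WT at day 0, with Retn at 0 in WT day 0. Single genes carry some of these sums. At day 0 Lpl (190 in KO, 55.9 in WT) was the 1 adipocyte marker of 7 that passed between KO and WT, and Col1a1 and Col3a1 made up most of the preadipocyte sums. Of the 8 preadipocyte markers 7 were higher in KO at day 2, and 6 were higher and 1 lower at day 0, the last being Cd34 (0.28 in KO, 3.94 in WT). Among all genes tested, 40.8% passed as higher and 40.6% as lower in KO at day 2, and 38.3% and 44.2% at day 0. Sums over 5 macrophage, 4 endothelial, 4 epithelial and 4 skeletal muscle markers stayed at or below 16.8, 0.575, 0.125 and 1.33 in every library, with Epcam, Myod1 and Myog at 0 in all groups. The macrophage sums were 16.4 to 16.8 in KO and 3.01 to 4.45 in WT at day 0, with Lyz2 at 14.8 in KO and 1.5 in WT. The part of these markers in the results was not tested, and in bulk RNA fewer dividing cells and less of a message per cell cannot be told apart.

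The promoters of the genes were searched for motifs. As replication genes are known to be switched on by E2F factors, E2F cores in them are not independent of the choice of genes. Promoters are shown for 3 genes, Mcm5 and Mcm6 as licensing genes that were low at both days in KO and Pcna as the gene that departed furthest from the others. The sequences are the 250 bases before the annotated start, from RefSeq on GRCm38.p6, 5′ to 3′ on the gene's own strand. Capitals mark the core of an E2F site or a CCAAT box (CCAAT on either strand). The E2F core was searched on both strands as TTCCCGC, with the variant TTGGCGC, with the variant TTGCCGC and with the variant TTCGCGC. Neighbouring E2F cores can overlap and then share capitals.
Mcm5, chr8:75109259-75109508, plus strand: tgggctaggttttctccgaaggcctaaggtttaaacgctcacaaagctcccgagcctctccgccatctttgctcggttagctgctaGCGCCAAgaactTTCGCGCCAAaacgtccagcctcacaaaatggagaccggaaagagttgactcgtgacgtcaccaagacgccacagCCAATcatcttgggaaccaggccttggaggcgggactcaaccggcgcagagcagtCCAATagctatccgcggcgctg
Mcm6, chr1:128359706-128359955, minus strand: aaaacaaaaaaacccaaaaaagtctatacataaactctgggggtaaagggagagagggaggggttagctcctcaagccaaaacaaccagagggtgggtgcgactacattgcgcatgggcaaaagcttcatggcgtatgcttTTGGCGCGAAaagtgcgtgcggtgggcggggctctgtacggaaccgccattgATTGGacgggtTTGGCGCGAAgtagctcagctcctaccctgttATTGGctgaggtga
Pcna, chr2:132253181-132253430, minus strand: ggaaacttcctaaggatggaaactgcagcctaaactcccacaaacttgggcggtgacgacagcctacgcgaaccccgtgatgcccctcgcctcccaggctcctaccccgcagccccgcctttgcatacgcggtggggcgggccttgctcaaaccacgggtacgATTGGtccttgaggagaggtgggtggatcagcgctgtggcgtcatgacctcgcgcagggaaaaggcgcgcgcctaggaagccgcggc
The Mcm5 stretch held 3 E2F cores and 2 CCAAT boxes, and the Mcm6 stretch 4 E2F cores and 2 CCAAT boxes. In the Pcna stretch there were 0 E2F cores in these letters and 1 CCAAT box. The same stretch of Rfc1, a gene lower in KO at both days, held 0 E2F cores and 1 CCAAT box as well, and its cores lay just after the start. The RefSeq table held promoters of 36 of the 44 genes, as 250 bases before to 50 after the start. An E2F core was found in 25 of these 36 (69.4%), against 2936 of 27025 genes in the table (10.9%). A CCAAT box was found in 23 of 36 (63.9%), against 41.1% of genes, and the cell cycle homology region CHR, searched as TTTGAA on both strands, in 4 of 36 (11.1%), against 20.2%. The E2F core was present in 7 of 9 licensing genes, 1 of 3 genes of helicase activation, 4 of 5 polymerase and primase genes, 4 of 6 clamp genes, 2 of 5 nucleotide genes, 4 of 5 genes of single-strand binding and Okazaki maturation and 3 of 3 of chromatin assembly and repair. The 11 genes with no core in the window were Orc6, Mcm2, Mcm10, Cdc45, Pola2, Pcna, Rfc5, Tyms, Tk1, Dut and Rpa1. At day 0 these 11 genes were lower in KO too, Mcm10 (log2 change -4.16) and Mcm2 (-2.84) among them. Such matches describe letters in a window and not bound sites, and a window without them shows no more than that.

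**Figure D1:**
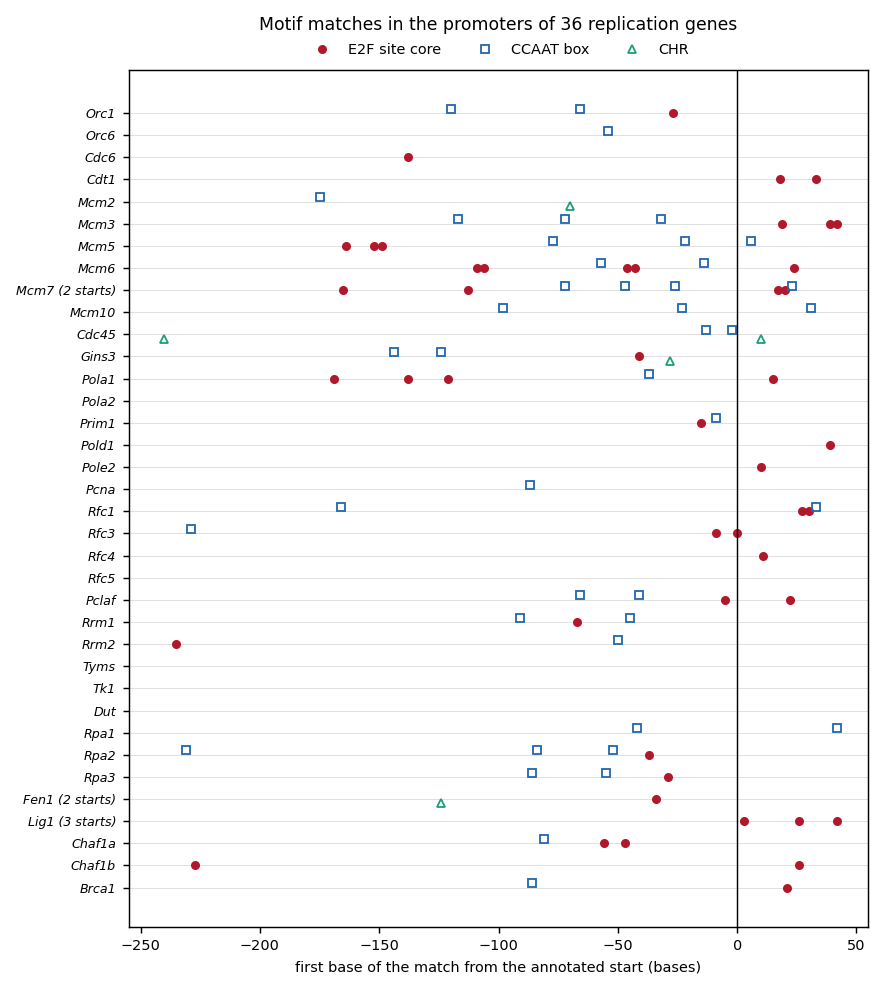
Motif matches in the promoters of 36 replication genes, with the distance in bases of the first base of each match from the annotated start on the x axis and genes on the y axis. Filled circles are E2F cores (25 of 36 genes), squares CCAAT boxes (23 of 36) and triangles the CHR (4 of 36), and genes with more than 1 annotated start show all matches.

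Before the cocktail, at day 0, KO libraries were set against WT libraries. All 43 replication genes tested were lower in KO and 0 higher, over a background in which 44.2% of 12961 genes were lower and 38.3% higher (adjusted p under 0.05). At least 2-fold lower were 39 of the 43, against 11.9% of all genes, and 0 were at least 2-fold higher, against 10.4%. In all 43 the KO libraries lay below every WT library, which held for 45% of all genes, while 39.1% of all genes lay wholly above. Their median log2 change was -2.44, with a range of -4.61 (Pclaf) to -0.39 (Gins3), and the median of all genes was -0.06. The remaining gene, Fen1, which encodes the flap endonuclease that trims lagging strand fragments, fell under the minimum mean of 1 FPKM. It stood at 0.0956 ± 0.0101 in KO and 0.373 ± 0.0365 in WT at day 0, on 4 to 5 and 16 to 20 recovered reads per library. The annotated span of Fen1 (chromosome 19, 10199132 to 10204393 on mm10) overlaps Tmem258, at 122 ± 2.94 in KO and 98.6 ± 2.23 in WT at day 0, and the part of this overlap in the Fen1 level was not tested.

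**Figure D2:**
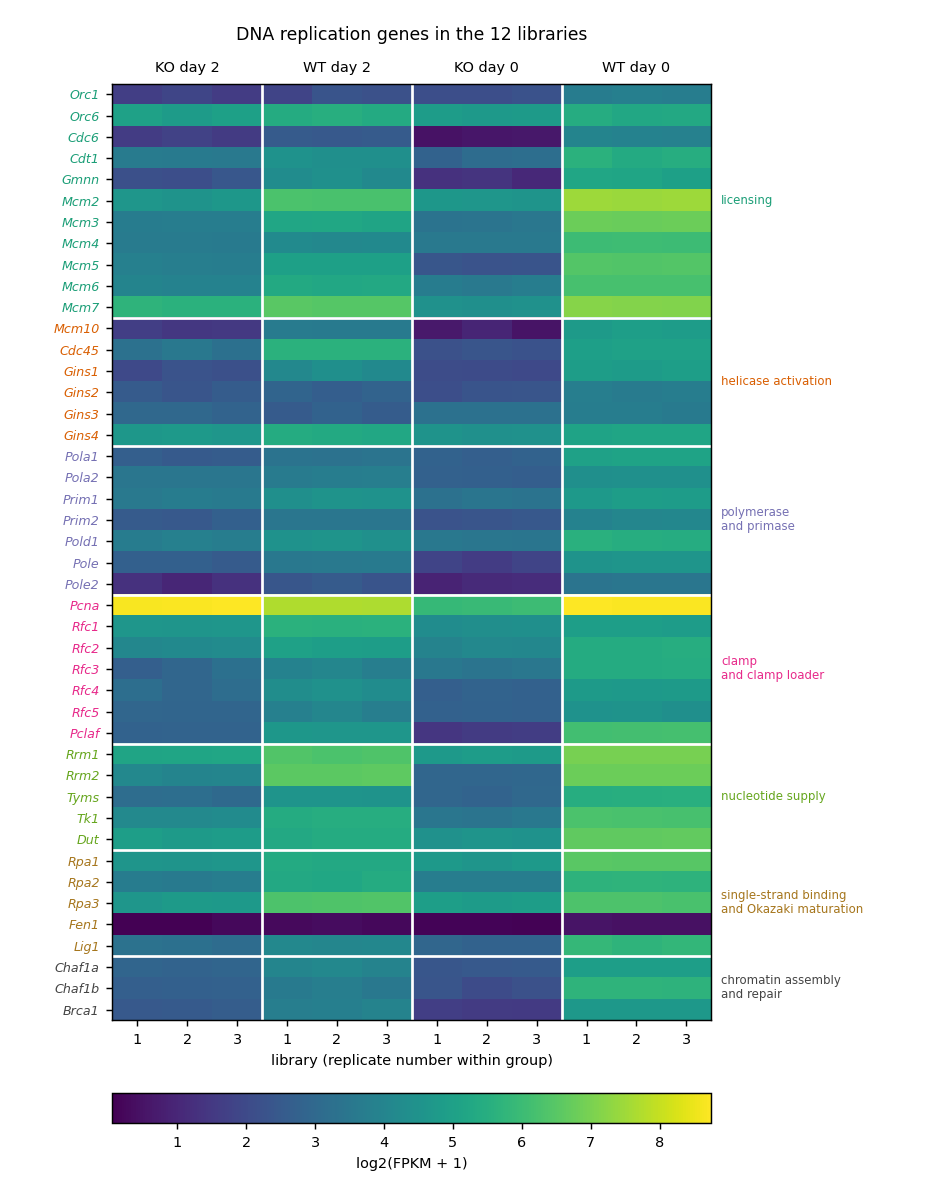
Level of each of the 44 genes as log2(FPKM + 1), in colour, in the 12 libraries (columns, 3 per group), with genes in rows by role. Most rows are brightest in WT day 0 and darkest in KO day 0, and the Pcna row is about as bright in KO day 2 as in WT day 0.

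The licensing genes were among the lowest in KO at day 0. All 11 were lower, 10 of them at least 2-fold, with a median log2 change of -2.71. Mcm5, a subunit of the helicase ring, stood at 4.23, 3.88 and 3.92 FPKM in the KO libraries and at 85, 83 and 84 in the WT libraries. This was 20.9-fold lower by the group means (log2 change -4.08, SE 0.03, adjusted p = 1.54e-15), and no KO library came near a WT library. The other 5 ring subunits were 5.82-fold (Mcm4) to 11.2-fold (Mcm3) lower. Cdc6, the loading factor of the ring, stood at 0.474 ± 0.0638 in KO and 14.2 ± 0.531 in WT, 29.9-fold lower. Gmnn, the inhibitor of Cdt1, was lower as well, at 1.47, 1.59 and 1.08 in KO against 35.6, 34.5 and 31 in WT, 24.4-fold (log2 change -3.87, SE 0.10, adjusted p = 4.62e-12). Thus the inhibitor and Cdt1 itself, at 7.3 ± 1.19 in KO and 43.9 ± 3.86 in WT, were both low. The origin complex genes differed least: Orc1 was 3.54-fold lower, and Orc6, a small subunit of the same complex, stood at 27.8, 25.5 and 26.5 in KO against 42.1, 37.9 and 38.8 in WT (log2 change -0.56, SE 0.06, adjusted p = 2.98e-06). The Orc6 libraries still did not overlap between the groups.

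Among the 6 genes of helicase activation, all were lower in KO at day 0 and 4 at least 2-fold, with a median of -2.11 and a range of -4.16 to -0.39. Mcm10, which binds and activates the loaded helicase, stood at 0.576, 0.942 and 0.414 in KO and at 26.7, 29.3 and 28.2 in WT, 43.6-fold lower (log2 change -4.16, SE 0.10, adjusted p = 3.22e-12). It was the gene with the lowest share of its WT level, at 2.29%, on 16 to 37 reads per KO library. Gins3, a subunit of the GINS complex, stood at 8.82, 8.94 and 8.78 in KO and at 12.4, 12.3 and 11.1 in WT (log2 change -0.39, SE 0.07, adjusted p = 0.000323). That was the smallest difference of the 43 genes, at 74.1% of the WT level. The 4 GINS subunits, which act as a single complex, thus differed among themselves, since Gins1 was 9.24-fold, Gins2 3.22-fold and Gins4 1.64-fold lower.

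All 7 polymerase and primase genes were at least 2-fold lower in KO at day 0, with a median of -2.02. Pole, the catalytic subunit of the leading strand polymerase epsilon, stood at 2.56, 2.05 and 2.57 in KO and at 22.2, 23.1 and 23.3 in WT, 9.56-fold lower (log2 change -2.82, SE 0.07, adjusted p = 3.45e-12). Prim1, the catalytic primase subunit, stood at 8.73, 9.83 and 9.38 in KO and at 25.4, 28.4 and 28.1 in WT, 2.93-fold lower (log2 change -1.46, SE 0.06, adjusted p = 2.74e-10). These 2 genes mark the ends of the range within the role, and neither has overlapping libraries.

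Of the 7 clamp and clamp loader genes all were lower at day 0, 6 of them at least 2-fold, with a median of -1.93. Pclaf, which encodes a factor that binds the PCNA ring, stood at 1.69, 1.94 and 2.07 in KO and at 68.1, 70.6 and 71 in WT, 36.8-fold lower (log2 change -4.61, SE 0.05, adjusted p = 5.03e-15), the largest log2 difference of the 43 genes. Pcna (chromosome 2, 132249286 to 132253180 on mm10), the gene of the ring itself, stood at 57.7, 61.2 and 63 in KO and at 425, 418 and 411 in WT, 6.9-fold lower (log2 change -2.77, SE 0.03, adjusted p = 9.14e-15). Rfc1, the large subunit of the loader, stood at 18.7, 19.5 and 20.1 in KO and at 29.4, 29.1 and 28.3 in WT, 1.49-fold lower (log2 change -0.55, SE 0.03, adjusted p = 8.70e-09). Its small partners Rfc2 to Rfc5 were 2.7-fold (Rfc2) to 4.57-fold (Rfc4) lower.

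All 5 nucleotide supply genes were at least 2-fold lower at day 0, with a median of -2.58. Rrm2, the regulated subunit of ribonucleotide reductase, stood at 6.62, 6.67 and 6.69 in KO and at 109, 110 and 110 in WT, 16.5-fold lower (log2 change -3.85, SE 0.04, adjusted p = 2.72e-15). Its partner Rrm1 was 4.64-fold lower. Dut, which removes dUTP, stood at 20.9, 22.6 and 21.5 in KO and at 98.5, 97.4 and 101 in WT, 4.57-fold lower (log2 change -2.14, SE 0.04, adjusted p = 4.97e-13). Tyms and Tk1, which make thymidylate, were 6.73-fold and 7.48-fold lower.

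The 4 tested genes of single-strand binding and Okazaki maturation were lower at day 0, all at least 2-fold, with a median of -1.89. Lig1, the ligase of lagging strand fragments, stood at 6.66, 5.98 and 5.9 in KO and at 56.7, 51.1 and 55.3 in WT, 8.8-fold lower (log2 change -2.95, SE 0.06, adjusted p = 4.77e-13). Rpa3, the small subunit of the single-strand binding protein RPA, stood at 29.5, 27.2 and 28.5 in KO and at 78.1, 79.6 and 74.7 in WT, 2.73-fold lower (log2 change -1.42, SE 0.04, adjusted p = 2.43e-11). The 3 genes of chromatin assembly and repair had the lowest median of the roles, -3.10. Chaf1b, a subunit of the assembly factor that places histones behind the fork, stood at 4.12, 3.15 and 3.68 in KO and at 51.2, 51.1 and 49.7 in WT, 13.9-fold lower (log2 change -3.48, SE 0.07, adjusted p = 8.70e-13). Chaf1a, its partner, stood at 4.25, 4.62 and 4.7 in KO and at 29.8, 29.7 and 29.8 in WT, 6.58-fold lower (log2 change -2.48, SE 0.05, adjusted p = 9.27e-13). Brca1, which protects stalled forks and repairs breaks, was 12.3-fold lower, at 2.02 ± 0.127 in KO and 24.9 ± 0.146 in WT.

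Under the cocktail, at day 2, the median gap between KO and WT was narrower. Of the 43 genes, 41 were lower and 2 higher in KO, over a background of 40.6% lower and 40.8% higher among all genes tested. At least 2-fold lower were 19 genes, against 11.5% of all genes, and 1 gene, Pcna, was at least 2-fold higher, against 12.9%. The KO libraries lay wholly below the WT libraries in 40 genes and wholly above in 2, against 41% and 41.2% of all genes. The median log2 change was -0.96 (all genes 0.00), with a range of -2.53 (Rrm2) to 1.01 (Pcna). The median difference of each role was smaller than at day 0, at -0.89 for licensing, -1.36 for helicase activation, -0.82 for polymerase and primase, -0.97 for clamp, -1.25 for nucleotide supply, -1.24 for single-strand binding and Okazaki maturation and -1.17 for chromatin genes.

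**Figure D3:**
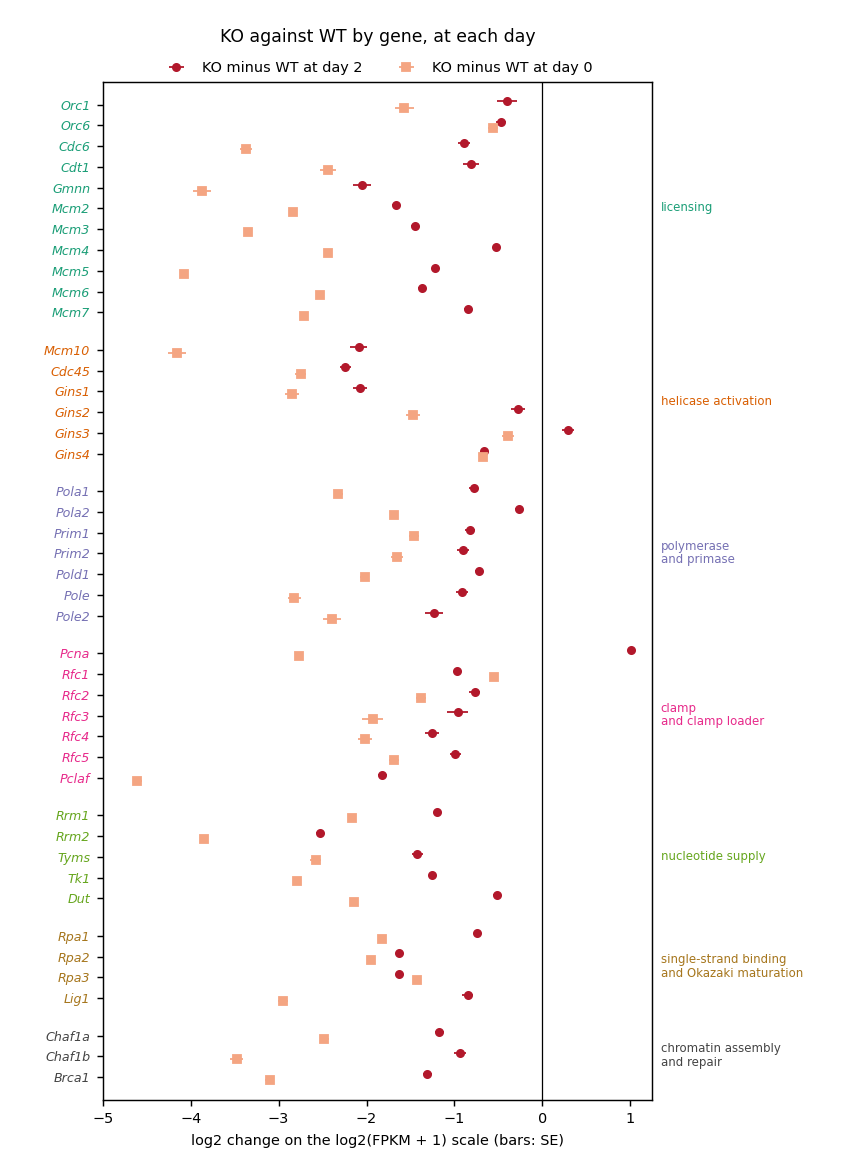
Log2 change of KO over WT on the log2(FPKM + 1) scale with its SE (bars), per gene, at day 2 (circles) and day 0 (squares), with genes in rows by role. All 43 squares lie left of 0, while of the circles Pcna (1.01) and Gins3 (0.29) lie right of it.

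Pcna was the only gene of the 43 that was at least 2-fold higher in KO at day 2. It stood at 404, 417 and 429 in KO and at 209, 207 and 205 in WT, 2.02-fold higher (log2 change 1.01, SE 0.03, adjusted p = 2.60e-11). The lowest KO library was thus well above the highest WT library. The Pcna level in KO day 2 was 99.6% of its level in WT day 0. Around the ring, Pclaf was lower in KO at day 2, at 5.9, 6.13 and 6.09 against 24.4, 23.6 and 23.5 in WT, 3.95-fold (log2 change -1.82, SE 0.05, adjusted p = 4.51e-12). All 5 loader genes Rfc1 to Rfc5 were lower too, by 1.75-fold (Rfc2) to 2.58-fold (Rfc4). In KO day 2, Pcna made up 44 ± 0.77% of the summed FPKM of the 44 genes, against 14.3 ± 0.085% in WT day 2. The other 43 genes together summed to 523 to 533 in KO and 1231 to 1242 in WT at day 2.

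Gins3 was the other gene that was higher in KO at day 2. It stood at 6.92, 6.95 and 6.11 in KO and at 4.91, 5.98 and 4.94 in WT, 1.26-fold higher (log2 change 0.29, SE 0.07, adjusted p = 0.00289), and its groups came close without overlapping. Cdc45, the partner of GINS in the moving helicase, had the most negative log2 change within helicase activation, at 8.93, 10.5 and 8.59 in KO and at 48.1, 47.7 and 47.7 in WT, 5.12-fold lower (log2 change -2.24, SE 0.06, adjusted p = 7.76e-12). By the ratio of means Mcm10 was further apart, 5.98-fold lower, Gins1 was 5.13-fold and Gins2 1.26-fold lower. The members of the role thus ran in both directions at this day.

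**Figure D4:**
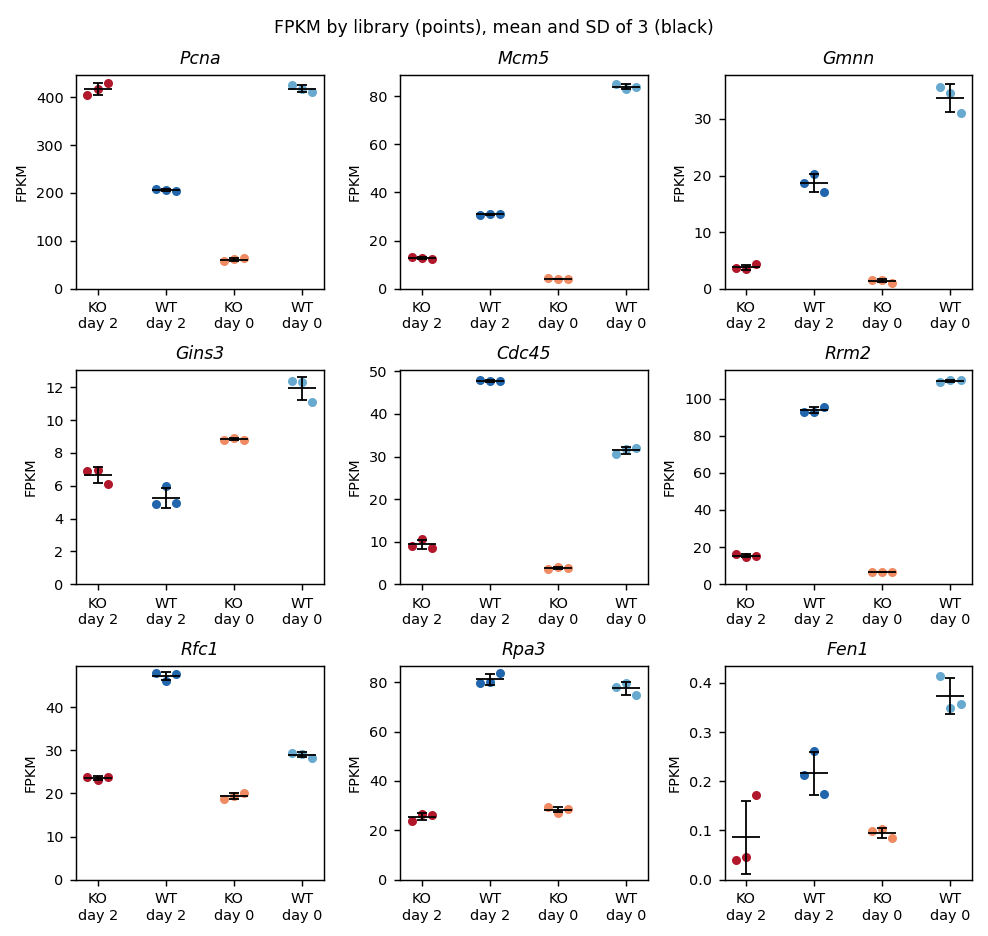
FPKM (y axis, starting at 0) of 9 genes in each library (points), with mean and SD of 3 libraries (black), by group on the x axis. Pcna is the panel in which KO day 2 stands above WT day 2 and beside WT day 0, and Rfc1, Cdc45 and Rpa3 are highest in WT day 2.

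Each of the 11 licensing genes stood lower in KO at day 2, and 5 at least 2-fold. Gmnn had the largest difference of the role, at 3.56, 3.46 and 4.28 in KO and 18.7, 20.3 and 17.1 in WT, 4.97-fold lower (log2 change -2.05, SE 0.10, adjusted p = 1.25e-09). Orc1 had the smallest log2 change, at 2.2, 2.69 and 2.04 in KO and 2.56, 3.98 and 3.66 in WT (log2 change -0.40, SE 0.11, adjusted p = 0.00595), and was the 1 gene called at day 2 whose libraries overlapped between the groups. By the ratio of means Orc6 differed less, 1.4-fold lower against 1.47-fold for Orc1, a gene near the pseudocount. The 6 ring subunits lay between these: Mcm2 was 3.28-fold lower, Mcm3 2.88-fold, Mcm6 2.69-fold, Mcm5 2.43-fold, Mcm7 1.82-fold and Mcm4 1.48-fold. Cdc6 was 2.25-fold and Cdt1 1.82-fold lower.

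The remaining roles were lower in KO at day 2 in every tested gene. Among polymerase and primase genes the difference was largest for Pole2, a subunit of polymerase epsilon, at 1.46, 0.983 and 1.43 in KO and 4.25, 4.81 and 4.02 in WT, 3.37-fold lower (log2 change -1.23, SE 0.10, adjusted p = 1.46e-07). It was smallest for Pola2, the regulatory subunit of polymerase alpha, at 10.2, 10 and 10.1 in KO and 11.8, 12.5 and 12.8 in WT, 1.22-fold lower (log2 change -0.27, SE 0.04, adjusted p = 6.45e-05). Among nucleotide genes Rrm2 stood at 16.4, 14.6 and 15 in KO and at 92.9, 92.6 and 95.6 in WT, 6.1-fold lower (log2 change -2.53, SE 0.04, adjusted p = 2.71e-14), the largest fall of the 43 genes at this day. Dut differed least of the nucleotide genes, at 29.6, 26.7 and 27.8 in KO and 38.8, 41.2 and 41.4 in WT, 1.45-fold lower (log2 change -0.52, SE 0.04, adjusted p = 1.88e-07). The RPA subunits split, with Rpa3 at 23.8, 26.4 and 26.1 in KO against 79.5, 80.1 and 83.7 in WT, 3.19-fold lower (log2 change -1.63, SE 0.04, adjusted p = 5.57e-12), and Rpa1, the large subunit that binds DNA, at 22.8, 22.5 and 23.5 in KO against 40.3, 38.2 and 38.9 in WT, 1.71-fold lower (log2 change -0.74, SE 0.04, adjusted p = 1.67e-09). Rpa2 was 3.27-fold and Lig1 1.9-fold lower. Brca1 stood at 4.65, 4.73 and 5.11 in KO and 12.8, 13.1 and 14.4 in WT, 2.78-fold lower (log2 change -1.31, SE 0.05, adjusted p = 2.68e-10), and Chaf1b at 5.42, 5.54 and 5.7 in KO and 11.4, 12.6 and 10.7 in WT, 2.08-fold lower (log2 change -0.94, SE 0.07, adjusted p = 1.28e-07). Fen1, not tested, stood at 0.0863 ± 0.0745 in KO and 0.216 ± 0.0442 in WT, on 2 to 8 and 8 to 12 reads.

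The response to the cocktail, day 2 against day 0, mostly went up in the KO-labelled cells and down in the WT cells. In KO 31 of 43 genes were higher and 6 lower at day 2, and 6 did not pass, over a background of 33.9% higher and 38.8% lower among all genes. Of the 31, 8 were at least 2-fold higher, against 5.46% of all genes. The median log2 change in KO was 0.30 (all genes -0.03), so most of these rises were small. None of the 6 was at least 2-fold lower, against 6.99% of all genes. The day 2 libraries lay wholly above the day 0 libraries in 31 genes and wholly below in 4, against 34.9% and 39.9% of all genes. In WT 38 of 43 were lower and 3 higher at day 2, and 2 did not pass, over a background of 46.5% lower and 34.2% higher. Of the 38, 19 were at least 2-fold lower, against 15.1% of all genes, and the median was -0.95 (all genes -0.11). None of the 3 was at least 2-fold higher, against 9.28% of all genes. The day 2 libraries lay wholly below the day 0 libraries in 38 genes and wholly above in 3, against 47.4% and 34.8% of all genes. Both held for 27 genes, higher at day 2 in KO and lower in WT. The difference between the responses was tested as the interaction, KO response minus WT response. It was above 0 in 39 genes and below 0 in 2 by that test, over a background of 40.8% above and 33% below among all genes, with a median of 1.19 (all genes 0.06). In 28 of the 39 it was past 2-fold, against 12.8% of all genes, and neither of the 2 below 0 was, against 8.71%.

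**Figure D5:**
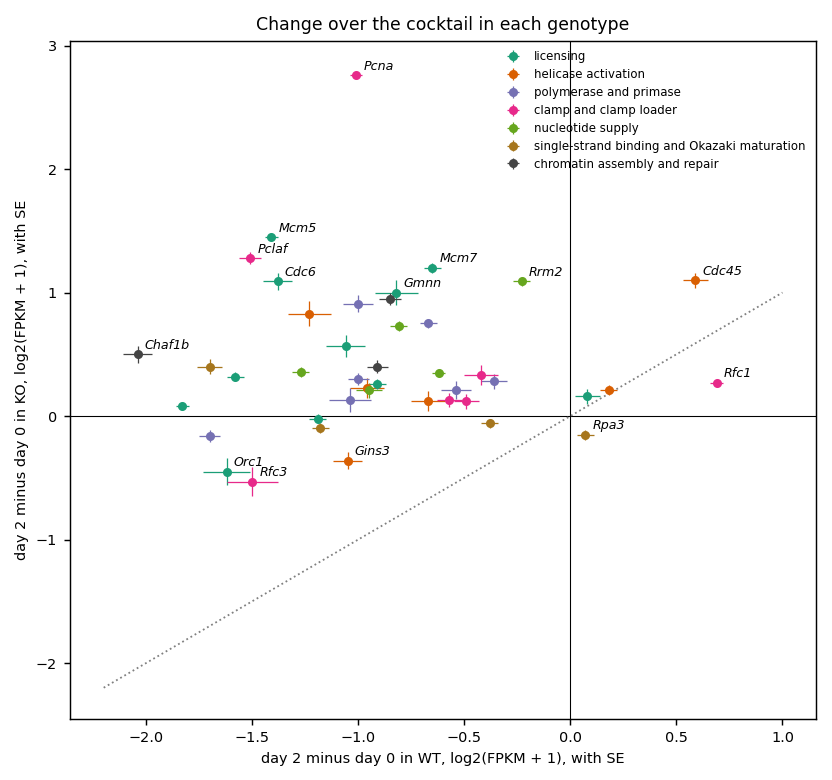
Log2 change from the cocktail (day 2 minus day 0, on the log2(FPKM + 1) scale, with SE) in KO on the y axis against that in WT on the x axis, for 43 genes coloured by role, with a dotted line where both are equal. Most genes lie in the upper left, higher at day 2 in KO and lower in WT, with Pcna at 2.76 and -1.01, and Rfc1 and Rpa3 lie below the line.

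Of the 43 genes Pcna had the largest log2 response in KO and the largest interaction. In KO it was 6.88-fold higher at day 2 than at day 0 (log2 change 2.76, SE 0.03, adjusted p = 1.03e-14), and in WT 2.02-fold lower (log2 change -1.01, SE 0.03, adjusted p = 2.17e-11), an interaction of 3.77 (SE 0.04, adjusted p = 3.31e-14). The other 7 genes at least 2-fold higher at day 2 in KO were Mcm5 (log2 change 1.45), Pclaf (1.28), Mcm7 (1.20), Cdc45 (1.10), Cdc6 (1.09), Rrm2 (1.09) and Gmnn (1.00). Even so, Mcm5 at 12.7 ± 0.458 in KO day 2 stayed under its 31 ± 0.228 in WT day 2 and its 84 ± 0.962 in WT day 0. The 6 genes lower at day 2 in KO were Rfc3 (log2 change -0.53), Orc1 (-0.45), Gins3 (-0.36), Pola1 (-0.16), Rpa3 (-0.15) and Rpa1 (-0.10). The last 3 moved little, and the KO libraries of the 2 days overlapped in Pola1 and Rpa1. Mcm2, Gins1, Pole2, Rfc2, Rfc5 and Rpa2 did not pass in KO, with log2 changes of -0.06 (Rpa2) to 0.13 (Pole2 and Rfc5). Some small KO responses lose their call when 1 library is left out: Orc6, Mcm4, Gins2, Pola1, Prim2 and Rpa1.

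Largest on the log2 scale among the WT falls at day 2 were Chaf1b (4.38-fold, log2 change -2.04), Mcm4 (3.71-fold, -1.83), Pola1 (3.49-fold, -1.70), Lig1 (3.38-fold, -1.70) and Orc1 (3.64-fold, -1.62). The helicase ring did not fall evenly in WT, since Mcm7 was 1.58-fold and Mcm6 1.9-fold lower while Mcm3 was 3.05-fold lower. Cdc45, Rfc1 and Gins4 were higher at day 2 in WT. Cdc45 stood at 48.1, 47.7 and 47.7 in WT day 2 against 30.5, 31.8 and 32 in WT day 0 (log2 change 0.59, SE 0.06, adjusted p = 2.18e-06). Rfc1 stood at 47.9, 46.1 and 47.6 in WT day 2 against 29.4, 29.1 and 28.3 in WT day 0 (log2 change 0.69, SE 0.03, adjusted p = 9.02e-10). Gins4 was 1.14-fold higher, a small rise past the spread of its libraries (log2 change 0.18, SE 0.04, adjusted p = 0.00162). Orc6 (log2 change 0.08) and Rpa3 (0.07) did not pass in WT at FPKM scaling, and with median-of-ratios scaling they passed as higher, at 0.18 and 0.16. Rrm2 held most of its WT level, at 85.4% of day 0, whereas Rrm1 was at 64.7%.

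By role, the interaction had its highest medians in licensing (1.82, 10 of 11 genes passing above 0) and chromatin genes (1.80, 3 of 3). Nucleotide supply (1.32, 5 of 5) and polymerase and primase (1.30, 7 of 7) came next. The median was lower in clamp genes (0.75, 6 of 7), helicase activation (0.73, 5 of 6) and single-strand binding and Okazaki maturation (0.70, 3 of 4). Of all genes, 40.8% passed above 0. These medians were not tested against each other. The 2 genes with an interaction below 0 were Rfc1 (-0.42, SE 0.04, adjusted p = 3.88e-06), higher at day 2 in both genotypes and more so in WT, and Rpa3 (-0.22, SE 0.06, adjusted p = 0.0067). Orc6 (0.08) and Gins4 (0.03) did not pass, and the sign of the Gins4 value turns with TPM scaling (-0.03) and median-of-ratios scaling (-0.01). Cdc45 was higher at day 2 in both genotypes, with an interaction of 0.51 (SE 0.09, adjusted p = 0.00023).

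The order of the 4 group means was alike across the genes. In 30 of the 43 tested it ran WT day 0, WT day 2, KO day 2, KO day 0, highest to lowest. In Mcm2, Pola1, Rfc3, Rpa1 and Rpa2 the KO groups traded places, and in Orc6, Cdc45, Gins4 and Rfc1 the WT groups did. The other 4 each had an order of their own: Pcna stood highest in WT day 0 and KO day 2, Gins3 lowest in WT day 2, Orc1 lowest in KO day 2 with WT day 2 just above it, and Rpa3 highest in WT day 2 and lowest in KO day 2. Neighbours in these orders did not always differ: KO day 2 and KO day 0 overlapped in Mcm2, Orc6, Gins1, Pola1, Pole2, Rfc2, Rpa1 and Rpa2, and WT day 2 and WT day 0 in Orc6 and Rpa3. For Pcna the KO day 2 and WT day 0 libraries overlapped, and for Orc1 those of WT day 2 overlapped with both KO day 2 and KO day 0. Set against WT day 0, the median gene stood at 23.4% in KO day 2 (range 6.77% to 99.6%), at 50.6% in WT day 2 (22.8% to 163%) and at 16.6% in KO day 0 (2.29% to 74.1%).

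Subunits of a complex kept neither one level nor one ratio across the groups. Within the Mcm2 to Mcm7 ring the highest mean was 4.2 times the lowest in KO day 2, 5.16 times in WT day 2, 5.86 times in KO day 0 and 2.74 times in WT day 0. Mcm2 had the highest level per length of the ring at day 0 and Mcm7 at day 2, in KO and WT alike, and the lowest was Mcm4 in KO day 2, WT day 2 and WT day 0 and Mcm5 in KO day 0. Within GINS the ratio was 7.15 in KO day 2, 7.46 in WT day 2, 6.86 in KO day 0 and 2.9 in WT day 0. Gins4 was highest in all 4 groups, while the lowest was Gins1 in the KO groups and Gins3 in the WT groups. The Rfc1 to Rfc5 loader had ratios of 3.62 in KO day 2, 3.38 in WT day 2, 3.36 in KO day 0 and 2 in WT day 0. RPA and polymerase alpha with primase had ratios of 1.78 to 2.3 and 2.14 to 2.3. These were below the ratios of the other complexes in every group but WT day 0. There the loader, at 2, was more even than polymerase alpha with primase, at 2.14. These are descriptions of levels with no test.

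Chromosome 8 held 675 of the genes tested, and their median log2 change, KO against WT, exceeded the median of all genes by 0.40 at day 2 and by 0.42 at day 0. Of the replication genes Orc6, Cdt1, Mcm5, Gins2, Gins3 and Gins4 lie there, and their median was -0.56 at day 2 against -0.99 for the other 37, and -1.08 at day 0 against -2.48. Several of the smallest differences, those of Orc6, Gins3 and Gins4, are thus on this chromosome, but so is the 20.9-fold lower Mcm5. Other chromosomes were shifted too. Relative to the median of all genes, chromosome 6, with Mcm2 and Rpa3, was at -0.31 at day 2 and -0.34 at day 0. Chromosome 12, with Pole2 and Rrm2, was at -0.31 and -0.21. The part of the chromosomes in these values was not tested. In addition, 12 of the 44 genes overlap another protein-coding gene in the annotation (Orc1, Mcm7, Cdc45, Gins2, Pole2, Rfc4, Pclaf, Tk1, Rpa1, Fen1, Lig1 and Chaf1a), and the strand setting of the counting is not given in the sources used here, so reads of the overlapped parts cannot be told apart.

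A wider list held 57 replication genes outside the 44, all of them tested. Of these, 47 were lower and 7 higher in KO at day 2 (median -0.62), against 40.6% lower and 40.8% higher among all genes, and 46 were lower and 8 higher at day 0 (median -1.09), against 44.2% and 38.3%. Between days, 37 were higher and 11 lower at day 2 in KO (median 0.26), against 33.9% and 38.8% of all genes, and 18 were higher and 38 lower in WT (median -0.46), against 34.2% and 46.5%. The interaction passed above 0 in 42 and below 0 in 10 (median 0.64), against 40.8% and 33%. Uhrf1, which guides DNA methylation to new DNA, was 3.68-fold lower in KO at day 2 and 31.7-fold lower at day 0. Top2a, the topoisomerase of dividing cells, stood at 108 ± 2 in KO and 196 ± 6.84 in WT at day 2, and at 11.2 ± 0.091 in KO and 178 ± 1.03 in WT at day 0. Its rise over the cocktail in KO was 9.65-fold, above the 6.88-fold of Pcna. Rev3l, the catalytic subunit of a polymerase that copies damaged DNA, was 2.69-fold higher in KO at day 2, at 31.9 ± 1.34 against 11.9 ± 0.803 in WT, and did not pass at day 0 (8.16 ± 0.337 in KO, 8.77 ± 0.614 in WT). Pole4, a small subunit of polymerase epsilon, stood at 76.5 ± 3.84 in KO and 592 ± 6.84 in WT at day 2, where its partners Pole and Pole2 were at 5.37 ± 0.439 and 1.29 ± 0.268 in KO and 11 ± 0.304 and 4.36 ± 0.403 in WT. In nucleotide supply, Rrm2b, a form of the reductase subunit known from p53 responses, and the mitochondrial thymidine kinase gene Tk2 were higher in KO at both days, by 1.39-fold and 2.45-fold at day 2 and 2.27-fold and 2.17-fold at day 0, against the lower Rrm2 and Tk1.

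Regulators of these genes and genes known with Pcna from damage responses were listed too. Of 19 genes of the E2F, pocket protein and DREAM families, 14 were lower and 4 higher in KO at day 2 (median -0.82), against 40.6% and 40.8% of all genes, and 14 were lower and 3 higher at day 0 (median -0.95), against 44.2% and 38.3%. Mybl2, an activator of late cell cycle genes, was 5.93-fold lower in KO at day 2 and 27.4-fold lower at day 0. E2f7, a repressor that is itself an E2F target, was 2.4-fold and 38.9-fold lower. E2f1, an activator, differed far less, at 17.5 ± 0.0962 in KO and 20.6 ± 0.337 in WT at day 2 and 23.2 ± 0.335 in KO and 27.6 ± 0.448 in WT at day 0. The other activators, E2f2 and E2f3, differed more than E2f1. E2f2, a low gene, stood at 0.562 ± 0.0845 in KO and 2.48 ± 0.102 in WT at day 2. At day 0 it was 0.0891 ± 0.0191 in KO and 3.53 ± 0.288 in WT. E2f3 stood at 7.84 ± 0.299 in KO and 11.4 ± 0.69 in WT at day 2, and at 7.14 ± 0.155 and 14.1 ± 0.522 at day 0. The pocket protein gene Rbl2, a repressor partner in resting cells, and Tfdp2, a binding partner of E2F proteins, were higher in KO, by 2.18-fold and 2.92-fold at day 2 and 2.98-fold and 3.05-fold at day 0. Of 10 damage and arrest genes, 6 were higher and 2 lower in KO at day 2 (median 0.49), against 40.8% higher and 40.6% lower among all genes, and 8 were higher and 2 lower at day 0 (median 0.44), against 38.3% and 44.2%. The list is short, most genes of any kind were called, and Rrm2b and Polk are also in the wider replication list. Cdkn1a, whose protein p21 binds PCNA and blocks cyclin-dependent kinases, stood at 263 ± 9.35 in KO and 271 ± 3.19 in WT at day 2, which did not pass (log2 change -0.05, SE 0.03, adjusted p = 0.132), and at 319 ± 4.92 in KO and 74.5 ± 1.67 in WT at day 0, 4.28-fold higher (log2 change 2.08, SE 0.03, adjusted p = 2.60e-14).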

How the data were processed

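RNA-seq values of 12 libraries were used, 3 per group, and 24 MeRIP samples (12 immunoprecipitated, 12 input) were not analysed here. Per the labels' protocols, the library kit was NEBNext Ultra RNA. The deposited table holds FPKM values computed by the authors, 1 column per library with no pooling. Per the submitters' processing notes, the tools included HTSeq 0.6.1, TopHat2 2.0.12 and Bowtie2 2.2.3, with no role stated, and the build was mm10. Of the annotation, the strand setting and the FPKM formula nothing is given in the sources used here. In all 30916 genes above 0 the values were whole multiples of a step (tolerance 0.001 of a read), which gave 18073258 to 23114994 reads per library. The implied gene lengths were whole in 99.99% of 16215 genes (tolerance 0.05 bases).

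Levels were analysed as log2(FPKM + 1) in 12961 genes whose mean over all libraries reached 1 FPKM, among them 43 replication genes. The pseudocount understates the change of low genes. A mean per group was fitted with limma 3.58.1 in R 4.3.3 (variance trend, 8 residual degrees of freedom, 2-sided). Benjamini-Hochberg adjustment ran over all genes tested in each comparison, with a threshold of 0.05. Folds are ratios of group mean FPKM. Symbols were matched for 51633 of 52505 identifiers. Promoter sequences are from RefSeq on GRCm38.p6.

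The members and the gene lists were chosen with earlier results of these data known. The genes given by library are, in each role and for KO with WT at each day, those with the most negative and the most positive change, and Pcna. Other values are examples chosen after they were seen. The alternatives were a pseudocount of 0.1, no filter, TPM, median-of-ratios and quantile scaling, voom on the recovered reads, only the libraries compared, a replicate block and each library left out in turn.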

Additional observations from a re-analysis of the deposited data

Results flagged for a closer look

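The response to the cocktail differed between the KO-labelled and WT cells in 41 of the 43 genes, by the interaction test of limma with Benjamini-Hochberg adjustment over all genes (largest adjusted p of the 41, 0.0067). Among all genes tested 40.8% passed this test above 0 and 33% below 0. Values here are log2 differences, KO response minus WT response, from 3 libraries per group. In licensing they were 2.87 for Mcm5, 2.47 for Cdc6, 1.91 for Mcm4, 1.90 for Mcm3, 1.86 for Mcm7, 1.82 for Gmnn, 1.63 for Cdt1 and 1.17 each for Orc1, Mcm2 and Mcm6. In helicase activation they were 2.06 for Mcm10, 1.19 for Gins2, 0.78 for Gins1, 0.68 for Gins3 and 0.51 for Cdc45. In the polymerase and primase group they were 1.91 for Pole, 1.54 for Pola1, 1.42 for Pola2, 1.30 for Pold1, 1.16 for Pole2, 0.76 for Prim2 and 0.64 for Prim1.

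Around the clamp, Pcna (3.77) and Pclaf (2.79) had larger differences than the loader genes Rfc3 (0.97), Rfc4 (0.75), Rfc5 (0.70), Rfc2 (0.61) and Rfc1 (-0.42). In nucleotide supply the values were 1.62 for Dut, 1.54 for Tk1, 1.32 for Rrm2, 1.16 for Tyms and 0.97 for Rrm1. Lig1 had 2.09 and the RPA genes 1.08 (Rpa1), 0.32 (Rpa2) and -0.22 (Rpa3). In chromatin assembly and repair they were 2.54 for Chaf1b, 1.80 for Brca1 and 1.31 for Chaf1a. Outside the 44 genes, examples above 0 were 3.36 for E2f7, 3.02 for Top2a, 2.89 for Uhrf1, 1.93 for Mybl2 and 1.45 for Rev3l. Examples below 0 were -2.13 for Cdkn1a, -1.70 for Pole4, -0.67 for Rrm2b and -0.44 for Rbl2. The 10 damage and arrest genes ran from -2.13 (Cdkn1a) to 2.65 (Gadd45b). Of these 4 passed above 0 and 6 below 0, against 40.8% and 33% of all genes.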

How the results depend on the processing

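For KO against WT, all 43 genes kept their sign and their call at both days in each of the 20 other fits, and with no filter Fen1 was lower as well at day 0, making 44. Over the 20 other fits of each response, 41 of 43 genes did so in WT and 30 of 43 in KO, and over the 19 other fits of the interaction 42 of 43 did. With median-of-ratios scaling, 3 genes rather than 6 were called lower at day 2 in KO, and 5 rather than 3 higher at day 2 in WT. The sign turned for 3 values that did not pass: that of Mcm2 in the KO response (0.04 with median-of-ratios scaling, 0.01 without KO day 0 replicate 1, 0.02 without KO day 2 replicate 2, lowest -0.05 over the fits that leave out 1 library, against -0.02), that of Rpa2 in the KO response (0.00 with quantile normalization, against -0.06) and the Gins4 interaction (-0.03 with TPM scaling, -0.01 with median-of-ratios scaling, -0.00 without KO day 2 replicate 2, highest 0.06 over the fits that leave out 1 library, against 0.03). Leaving out 1 library gave 28 to 32 genes higher and 4 to 6 lower at day 2 in KO. Calls were lost for Orc6 without KO day 0 replicate 2 or 3 or KO day 2 replicate 1 or 3 (range 0.13 to 0.22), for Gins2 without KO day 0 replicate 1 or KO day 2 replicate 1 or 3 (0.17 to 0.31), for Pola1 without KO day 2 replicate 2 (-0.20 to -0.13), for Prim2 without KO day 0 replicate 1 or KO day 2 replicate 3 (0.14 to 0.27), for Rpa1 without KO day 0 replicate 1 or 3 or KO day 2 replicate 1 or 2 (-0.15 to -0.08), and for Mcm4 (0.07 to 0.09) without any 1 library other than KO day 2 replicate 3 and WT day 2 replicates 1 and 2. Calls were gained for Gins1 without KO day 2 replicate 1 (0.20), Pole2 without KO day 2 replicate 2 (0.23), Rfc2 without KO day 0 replicate 2 (0.16) or KO day 2 replicate 1 (0.17) and Rfc5 without WT day 2 replicate 2 or 3 (0.13). The cause of these shifts was not tested.

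No label says that a replicate number marks a shared culture, so the numbers were not taken as pairs. The deviations of same-numbered libraries from their group means had correlations of -0.0545 to 0.0869. The best match carried the same number for 6 of 12 libraries. With the replicate number as a block, 30 genes were higher and 6 lower at day 2 in KO (31 and 6 without it), and the counts of the other comparisons, 43, 41 and 2, 38 and 3, and 39 and 2, did not move. Quantile normalization shifts the median of all genes by 0.12 in the WT response. Depth limits the genes near the floor: Fen1 had 2 to 20 reads per library.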
